A study of Homo sapiens with 20 samples.

Results

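The olfactory receptor clusters of chromosome 11 are 2 gene-dense tracts, at 11p15 and 11q, of receptor genes that sarcoma cells are not known to express. They were examined here in 7 deposited lists of accessible chromatin peaks, to describe the calls that the lists hold over these tracts. Genes of other families, among them TRIM21, TRIM68 and MMP26, lie among the 11p15 receptor genes. A call there need not concern a receptor gene. The members are all peaks that overlapped, in hg19 coordinates of chromosome 11, the windows from 4.38 to 5.2 Mb and from 5.75 to 6.25 Mb at 11p15 or that from 55 to 56.6 Mb at 11q, in all 2.92 Mb. The rule used positions only. It found 356 peaks of 1405320 in all lists together. The stretch between the 11p15 windows, from 5.2 to 5.75 Mb, holds the globin genes and a group of TRIM genes. It lies within the 11p15 run of receptor genes and was not shown to be free of them. Its 300 peaks were kept apart and serve as a comparison, and no peak crossed a window edge (0 at each window).

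Olfactory receptors are G protein-coupled receptors that bind odorants on the sensory neurons of the nose. Each neuron expresses a single allele of a single receptor gene, and the other receptor genes of that neuron lie in compacted chromatin with repressive histone marks. The 11p15 tract carries the class I receptors, of the families OR51, OR52 and OR56, and the 11q tract carries class II receptors. Outside the olfactory epithelium most of these genes are not transcribed. RNA levels were not used here, so silence in these cells was not checked, and a peak says only that the DNA was cut more often there than the caller's background.

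The assay was ATAC-seq, which maps accessible chromatin from the places where a transposase inserts sequencing adapters. The cells were SW872, a human liposarcoma line. Per the labels and the methods of the study, the 20 libraries are of pooled stable lines transduced with 1 of 7 retroviral vectors, all carrying the same resistance gene and selected with G418. The empty vector (EV), TAZ4SA, YAP5SA, CAMTA1, TAZ-CAMTA1 and YAP-TFE3 had 3 libraries each, and TFE3 had 2. TAZ4SA and YAP5SA are hyperactive forms of the coactivators TAZ and YAP, in which serines phosphorylated by the LATS kinases are replaced by alanine. CAMTA1 and TFE3 are transcription factors whose C-terminal parts are joined to TAZ and to YAP in TAZ-CAMTA1 and YAP-TFE3, the gene fusions of epithelioid hemangioendothelioma. The titles of the YAP-TFE3 libraries name YAP5SA as the YAP part. The third EV library is titled as a redo, with no word on what was repeated.

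The methods of the study describe peak calling replicate by replicate and a later consensus set. The deposited lists number 1 per vector, and the sources used here do not say how a vector's libraries entered its list. No value has a replicate error, the depth behind each list is unknown, and differences between vectors cannot be told apart from differences between libraries or depths. Intervals are 95% intervals that cover counting error only, and they treat peaks as independent. The lists held from 152351 peaks (TAZ4SA) to 236607 (TAZ-CAMTA1) on chromosomes 1 to 22, X and Y.

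Peaks were sparse in the clusters in every list, and never absent. The EV list had 40 peaks there, the TAZ4SA list 51, the YAP5SA list 66, the CAMTA1 list 59, the TFE3 list 25, the TAZ-CAMTA1 list 50 and the YAP-TFE3 list 65. The YAP5SA and YAP-TFE3 lists were thus the fullest and the TFE3 list the emptiest. Per Mb this was 13.7 peaks in EV, 17.5 in TAZ4SA, 22.6 in YAP5SA, 20.2 in CAMTA1, 8.56 in TFE3, 17.1 in TAZ-CAMTA1 and 22.3 in YAP-TFE3. The rest of the genome held from 49.3 peaks per Mb (TAZ4SA) to 76.5 (TAZ-CAMTA1), and the rest of chromosome 11 from 75.9 to 115.9. The ranges of the clusters and of the rest did not overlap.

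The density ratio, peaks per Mb in the clusters divided by peaks per Mb in the rest of the genome, had a median of 0.280 over the 7 lists. It was lowest in TFE3, at 0.169 (interval 0.115 to 0.250), and highest in TAZ4SA, at 0.355 (0.270 to 0.466). EV stood at 0.248 (0.182 to 0.338), TAZ-CAMTA1 at 0.224, CAMTA1 at 0.280, YAP-TFE3 at 0.292 and YAP5SA at 0.303. The intervals of TFE3 and TAZ4SA, the ends of the order, did not overlap, whereas those of neighbours in the order did. The order did not follow the length of the lists, since TAZ4SA was the shortest list with the highest ratio and TAZ-CAMTA1 the longest list with the second lowest. The median ratio was 0.187 against the rest of chromosome 11. By the density pooled over all windows, the clusters were not among the emptiest tracts. Of 2821 other bins of 1 Mb that held a peak of any list, between 19.0% (TFE3) and 27.1% (TAZ4SA) held fewer peaks than 1 Mb of the clusters. Single windows were not set against the bins, so this need not hold for each window.

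**Figure D1:**
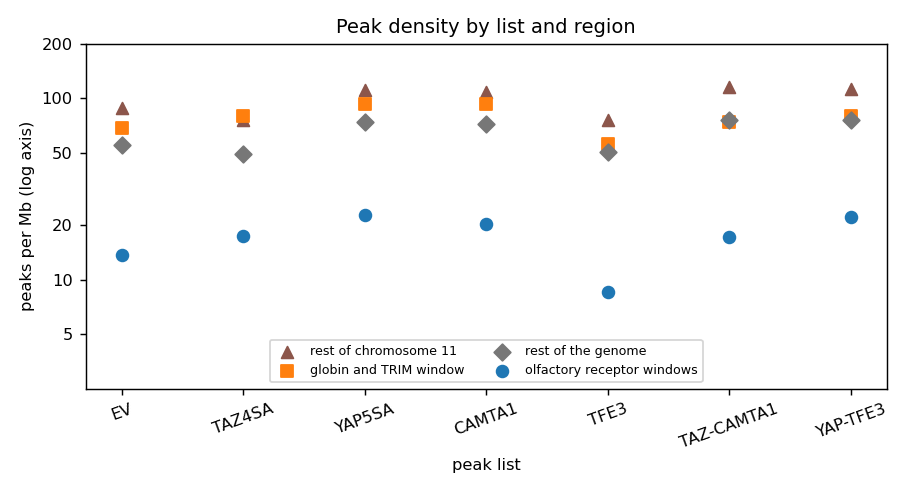
Peaks per Mb (log axis) in each of the 7 lists, 1 point per list and region, for the olfactory receptor windows, the globin and TRIM window, the rest of chromosome 11 and the rest of the genome. The olfactory receptor windows sit between 8.56 and 22.6 and below every other point, and the globin and TRIM window sits between 56.4 and 92.7.

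The globin and TRIM window, which lies inside the 11p15 tract, was not sparse against the rest of the genome. It held from 56.4 peaks per Mb in TFE3 to 92.7 in YAP5SA and CAMTA1, between 0.974 and 1.62 times the rest of the genome. Against the rest of chromosome 11 it was denser in TAZ4SA, at 80.0 against 76.4 per Mb. In all other lists it was sparser, as in TAZ-CAMTA1, at 74.5 against 115.9. Its density was higher than that of the clusters in all 7 lists. Receptor genes inside this window were not counted apart, so the contrast is not one of receptor genes against other genes. In RefSeq's gene order on GRCh38.p14, the run of OR51, OR52 and OR56 genes from OR52B4 to OR52W1 held 102 olfactory receptor genes, 55 of them protein-coding and 47 pseudogenes. Among its other protein-coding genes are the globins, TRIM21, TRIM68, TRIM5, TRIM6, TRIM6-TRIM34, TRIM34 and TRIM22, members of the tripartite motif family of ubiquitin ligases, and the matrix metalloproteinase MMP26. TRIM21, TRIM68 and MMP26 come before the globins in that order, among receptor genes. The lists are in hg19 and the annotation at hand in another build, so no peak was assigned to a gene and no sequence under a peak was read.

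The 11p15 and 11q tracts differed. The 11p15 windows (1.32 Mb) held 274 of the 356 peaks and the 11q window (1.6 Mb) 82. The density ratio of the 11p15 windows ranged from 0.285 in TFE3 to 0.527 in YAP-TFE3, and that of the 11q window from 0.049 in TAZ-CAMTA1 to 0.216 in TAZ4SA. In 6 of the 7 lists the interval of 11q lay wholly below that of 11p15. The exception was EV, with 0.170 (0.103 to 0.280) at 11q and 0.343 (0.232 to 0.506) at 11p15. The longest stretch without a peak of any list was chr11:55026501-55640061, 613561 bp.

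Peaks of different lists that overlap were merged into 132 sites, 103 at 11p15 and 29 at 11q. Of these, 10 held a peak of every list. These 10 sites took 95 of the 356 peaks, from 19.7% of the cluster peaks in YAP5SA to 52% in TFE3, whereas such sites took 32.5% to 64.9% of the peaks in the rest of the genome. They took from 72.7% (YAP5SA) to 91.6% (TFE3) of the summed area under the curve, the deposited signal of a peak, against 88.7% to 94.9% in the rest. Both shares were lower in the clusters in 7 of 7 lists. Their highest summit −log10 p, the caller's significance at the peak's top, ranged from 7.38 to 20.2 between sites. Of the 10, 9 were at 11p15 and 1, chr11:56099253-56100038, at 11q.

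The strongest site of the clusters was chr11:4628838-4629946, 1109 bp wide. Its area under the curve was 4794 in EV, 4744 in TAZ4SA, 5790 in YAP5SA, 8072 in CAMTA1, 3668 in TFE3, 7626 in TAZ-CAMTA1 and 7851 in YAP-TFE3. Its summit −log10 p was 13.8 in EV, 15.5 in TAZ4SA, 16.2 in YAP5SA, 19.8 in CAMTA1, 12.2 in TFE3, 18.8 in TAZ-CAMTA1 and 20.2 in YAP-TFE3. The value was highest in the CAMTA1, TAZ-CAMTA1 and YAP-TFE3 lists and lowest in TFE3 on both scales.

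The next was chr11:4414048-4415488, with an area of 3917 in EV, 2793 in TAZ4SA, 3569 in YAP5SA, 5828 in CAMTA1, 3349 in TFE3, 6089 in TAZ-CAMTA1 and 5958 in YAP-TFE3. The same 3 lists were again above the other 4. At chr11:4513932-4515100 the area was 1315 in EV, 871 in TAZ4SA, 1308 in YAP5SA, 2282 in CAMTA1, 1331 in TFE3, 2829 in TAZ-CAMTA1 and 3139 in YAP-TFE3, with TAZ4SA lowest. At chr11:4658182-4658998 YAP5SA was highest, at 1598, before TAZ-CAMTA1 at 1434, CAMTA1 at 1146, YAP-TFE3 at 1077, EV at 821, TFE3 at 566 and TAZ4SA at 495. At chr11:5958244-5960497 the area ran from 378 in TAZ4SA to 3879 in YAP-TFE3, with 1250 in TFE3, 1688 in EV, 1949 in CAMTA1, 2018 in YAP5SA and 3564 in TAZ-CAMTA1. For comparison, the strongest such site of the globin and TRIM window, chr11:5704680-5706915, had an area of 3937 in EV, 2862 in TAZ4SA, 5004 in YAP5SA, 6564 in CAMTA1, 3432 in TFE3, 8707 in TAZ-CAMTA1 and 8091 in YAP-TFE3. The next 4 there were chr11:5616962-5618579, chr11:5645381-5647056, chr11:5301769-5302680 and chr11:5388026-5389483, with areas from 442 to 5779. The strongest cluster sites thus reached the areas of the strongest sites of that window. No peak was assigned to a gene, and genes of other families lie among the receptor genes. Whether the strongest cluster sites belong to receptor genes was not tested. Over the 10 cluster sites, TAZ4SA had the lowest area at 7, TFE3 at 2 and EV at 1. The highest area was in YAP-TFE3 at 4 sites and in YAP5SA, CAMTA1 and TAZ-CAMTA1 at 2 each. The areas were not scaled between lists here, so these orders describe the lists and were not tested.

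**Figure D2:**
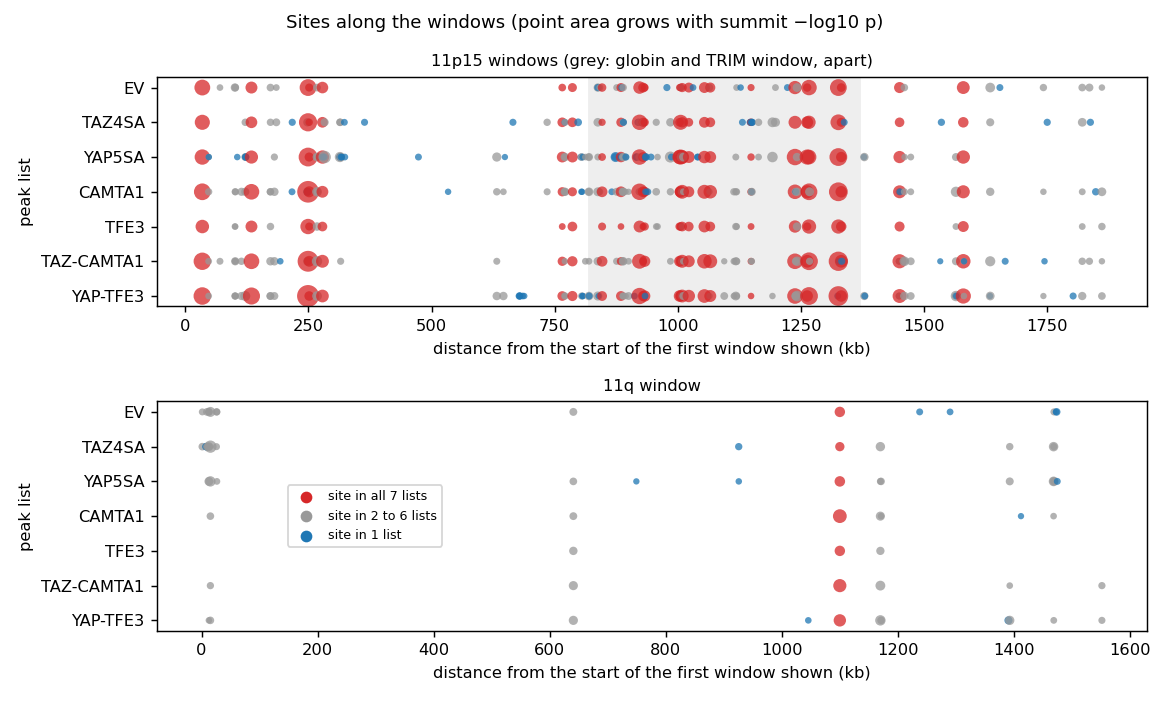
Sites along the windows, 1 row per list, as distance in kb from the start of the first window shown, with point area growing with the summit −log10 p. Red points are sites in all 7 lists, grey points sites in 2 to 6 lists and blue points sites held by 1 list, and the grey band is the globin and TRIM window. At 11q a single site is red and 613561 bp are empty in every list.

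Sites held by 1 list were the most frequent kind. Of the 132 sites, 66, or 50% (41.6 to 58.4), held a peak of 1 list, against 42.3% of all 371575 sites. Those held by all 7 lists were 7.58% (4.17 to 13.4), against 16.2% of all sites. The difference from the rest of the genome was 7.74 points (−0.673 to 16.1) for sites in 1 list, an interval that includes 0. It was −8.65 points (−12.1 to −2.84) for sites in all 7. In the globin and TRIM window 17 of 88 sites, or 19.3%, were in all 7 lists.

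Of the 66 sites held by 1 list, 20 were of YAP5SA, 15 of YAP-TFE3, 12 of TAZ4SA, 9 of CAMTA1, 5 each of EV and TAZ-CAMTA1, and 0 of TFE3. As a share of a list's cluster peaks this was 30.3% in YAP5SA, against 16.99% in the rest of the genome, 23.1% in YAP-TFE3 (12.7%), 23.5% in TAZ4SA (12.0%), 15.3% in CAMTA1 (9.41%), 12.5% in EV (7.23%), 10% in TAZ-CAMTA1 (14.7%) and 0% in TFE3 (0.973%). The interval of the difference excluded 0 in YAP5SA (3.56 to 25.2 points), YAP-TFE3 (1.78 to 21.9) and TAZ4SA (2.05 to 24.8), and included it in the other 4 lists. These intervals count peaks as independent, yet sites of 1 list could lie close together. YAP-TFE3 alone held a run of sites from chr11:5058018 to chr11:5068237, and 6 of the 20 YAP5SA sites lay within 81.5 kb. Whether the intervals would exclude 0 without these runs was not tested. The sites held by 1 list were narrow, with a median of 92 bp, whereas the sites of all 7 lists had a median of 1027 bp. Their highest summit −log10 p was 4.88, at chr11:56390052-56390207 in YAP-TFE3. The highest in the other lists were 4.66 in CAMTA1 (chr11:4628589-4628689), 4.58 in YAP5SA (chr11:4695243-4695342), 4.55 in EV (chr11:56473016-56473232), 4.55 in TAZ4SA (chr11:55008650-55008739) and 3.94 in TAZ-CAMTA1 (chr11:6044368-6044467). The CAMTA1 peak lies within 1 kb of the strongest site. In all, 34 of the 66, or 51.5%, lay within 1 kb of a peak of another list. Of the 125 cluster peaks with a summit of at least 5, 0 were without a peak in another list, which by the Wilson interval allows a share of up to 2.98%. In the rest of the genome it was 1.07% of 632562 such peaks.

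**Figure D3:**
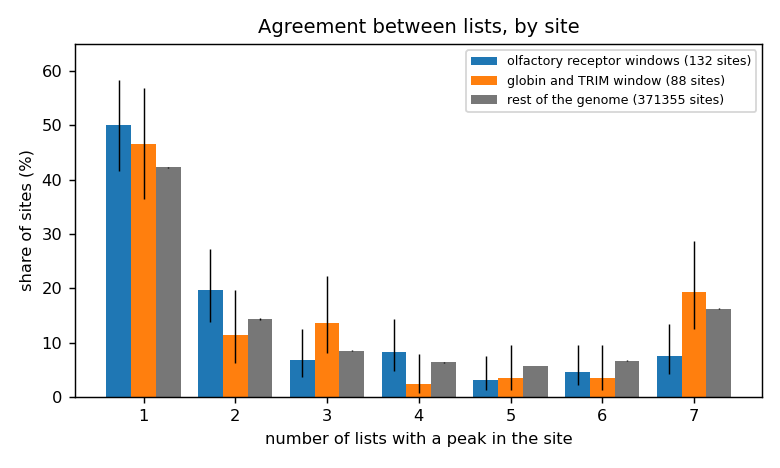
Share of sites (percent) by the number of lists with a peak in the site, for the olfactory receptor windows, the globin and TRIM window and the rest of the genome, with 95% Wilson intervals. Sites in 1 list reach 50% in the olfactory receptor windows and 42.3% in the rest, and sites in all 7 lists 7.58% and 16.2%.

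The cluster peaks were narrower at the median in 7 of 7 lists, and in 6 of 7 their median summit was weaker than in the rest of the genome. The exception was TFE3, with 4.83 in the clusters and 4.78 in the rest. The median summit −log10 p lay between 4.20 (YAP5SA) and 4.83 (TFE3) in the clusters and between 4.67 and 4.87 in the rest of the genome. The median peak width was 108.5 to 174 bp in the clusters and 169 to 217 bp in the rest. The share of peaks with a summit of at least 5 was 30% in EV, where 42% of the whole list passed, and 33.3% in TAZ4SA, where 45.4% passed. It was 31.8% in YAP5SA (44.1% of the list), 37.3% in CAMTA1 (46.1%), 44% in TFE3 (45.6%), 38% in TAZ-CAMTA1 (44%) and 35.4% in YAP-TFE3 (47.5%). The share was lower than the list's in all 7. The difference exceeded counting error in YAP5SA alone, at −12.3 points (−22.3 to −0.328), while in the other 6 lists its interval included 0.

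The density ratio at a summit of at least 8 was below that of all peaks in 7 of 7 lists, although it did not fall at every step within a list. Its median over the lists was 0.280 for all peaks, 0.238 at a summit of at least 4, 0.218 at 5, 0.184 at 6 and 0.168 at 8. At a summit of at least 8 the clusters held 40 peaks in all. The range over lists narrowed from 0.169 to 0.355 for all peaks to 0.131 to 0.210 at 8, while the intervals widened. Among the exceptions to a steady fall, TAZ4SA rose from 0.355 for all peaks to 0.370 at 4, TFE3 from 0.153 at 4 to 0.178 at 6, EV from 0.177 at 5 to 0.210 at 8 and CAMTA1 from 0.144 at 6 to 0.168 at 8, all within their intervals. The peaks with no peak in another list had a median ratio of 0.454, and those in sites of all 7 lists 0.161. For peaks with no counterpart TAZ4SA stood at 0.698 (0.399 to 1.22). TFE3 had 0 of 25 such peaks, with an interval of 0 to 2.68 that spans the values of the other lists. TAZ-CAMTA1 stood at 0.152 (0.065 to 0.356), with 1.71 such peaks per Mb in the clusters and 11.2 in the rest. YAP5SA stood at 0.541 (0.350 to 0.835), with 6.85 per Mb against 12.7.

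**Figure D4:**
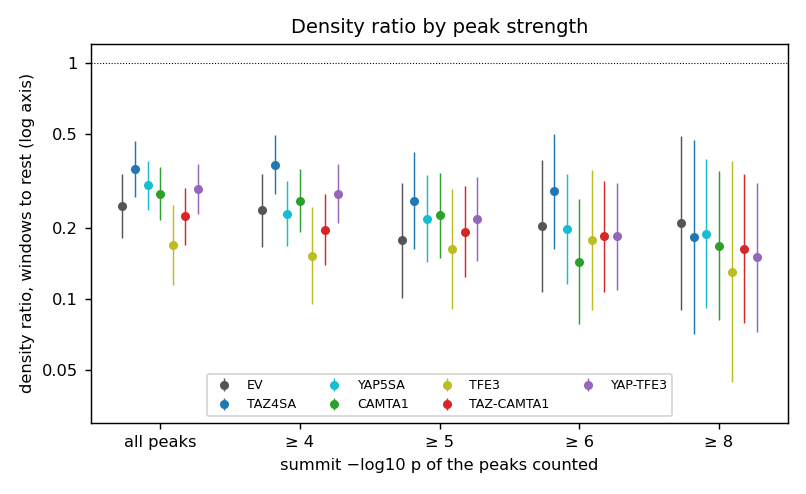
Density ratio of the olfactory receptor windows to the rest of the genome (log axis) for all peaks and for those reaching a summit −log10 p of 4, 5, 6 and 8, 1 point per list with its 95% interval. The median falls from 0.280 for all peaks to 0.168 at 8, and every point lies below 1.

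At equal strength, weak peaks were shared less often in the clusters than elsewhere from a summit of 4 to 5, while below 4 the difference depended on how the lists were weighted. Of the 106 cluster peaks with a summit under 4, 63.2% (53.7 to 71.8) overlapped a peak of another list, against 72.3% in the rest of the genome, a difference of −9.11 points (−18.6 to −0.544). Between 4 and 5 it was 78.4% of 125 peaks against 86.9%, a difference of −8.53 points (−16.5 to −2.22). These shares pool lists whose rates differ. With the rest weighted by each list's number of cluster peaks, its share was 70.7% under 4, a difference of −7.48 points (−17.0 to 1.09) that includes 0, and 86.0% from 4 to 5, a difference of −7.62 (−15.6 to −1.31). Between 5 and 6, 46 of 46 peaks had a counterpart, and at 6 and over 79 of 79, where the rest had 97.2% and 99.7%. Peaks under 4 were 29.8% of the cluster peaks and 24.0% of those in the rest. The share with a counterpart was below that of the rest in 5 of 7 lists under 4, all but TFE3 and TAZ-CAMTA1, and from 4 to 5 in 4 of 7, EV being the further exception. The median cluster peak under 4 was 87.5 bp wide, against 93 bp in the rest, and the part of width in the difference was not tested.

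**Figure D5:**
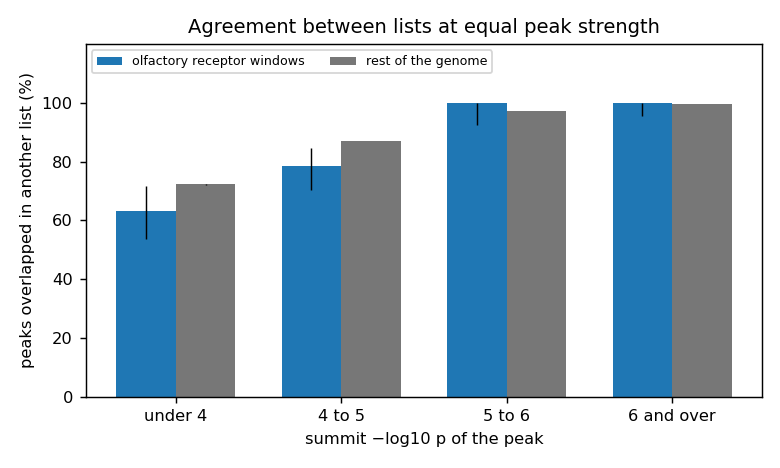
Share of peaks (percent) that overlapped a peak of another list, by the summit −log10 p of the peak, in the olfactory receptor windows and in the rest of the genome, all 7 lists together, with 95% Wilson intervals. Below 4 the bars stand at 63.2% and 72.3%, and from 5 on no bar is below 97.2%.

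The Jaccard index, the bases covered in both lists divided by the bases covered in either, ranged in the clusters from 0.325 (TAZ4SA with YAP-TFE3) to 0.611 (CAMTA1 with YAP-TFE3), with a median of 0.421 over 21 pairs. In the rest of the genome it ranged from 0.375 to 0.681, with a median of 0.558. It was lower in the clusters in 21 of 21 pairs, which share lists and are not independent. The pairs among CAMTA1, TAZ-CAMTA1 and YAP-TFE3 were the highest in the clusters, at 0.603 to 0.611, as they were in the rest, at 0.666 to 0.681. Without the sites of all 7 lists the median was 0.163 in the clusters and 0.207 in the rest, and 14 of 21 pairs were lower in the clusters. Of the 25 TFE3 cluster peaks, 25 overlapped a YAP-TFE3 peak, where 92.3% of its peaks in the rest of the genome did, 24 a CAMTA1 peak (90.5% in the rest) and 24 a TAZ-CAMTA1 peak (94.9%). Fewer overlapped a peak of YAP5SA, 19 (78.2%), EV, 18 (72.3%), or TAZ4SA, 16 (54.0%).

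Overlap with EV peaks was taken at 1 bp. The share of peaks without an EV peak was larger in the clusters than in the whole list for all 6 other vectors. It was 52.9% in TAZ4SA against 33.9% of the list, 72.7% in YAP5SA against 47.9%, 62.7% in CAMTA1 against 46.9%, and 64.6% in YAP-TFE3 against 50.7%. It was 28% in TFE3 against 27.6% and 54% in TAZ-CAMTA1 against 51.5%. The difference from the rest of the genome was 19.1 points (5.64 to 32.1) in TAZ4SA, 24.8 (13.0 to 34.1) in YAP5SA, 15.8 (3.09 to 27.1) in CAMTA1 and 13.9 (1.79 to 24.4) in YAP-TFE3. In TFE3 it was 0.35 points (−13.4 to 19.9) and in TAZ-CAMTA1 2.49 (−11.1 to 15.5), intervals that include 0. All 6 shares rest on the same 40 EV peaks. The EV list had 0.248 of its genome density here, below 4 of the other 6 lists, and the part of that lower number in these shares was not tested.

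Peaks of few lists are described in 2 stretches, which were chosen after their values were seen. The 81.5 kb of chr11:4662634-4744087 held 12 sites, 10 of them with a YAP5SA peak and 5 with a TAZ4SA peak. A TAZ-CAMTA1 peak was in 1, and EV, CAMTA1, TFE3 and YAP-TFE3 peaks were in 0. Of the 12, 6 were of YAP5SA alone, 2 of TAZ4SA alone and 3 of both. At chr11:4662634-4663529 the area under the curve was 1373 in YAP5SA (summit 9.0) and 106 in TAZ4SA (4.86). At chr11:4693594-4694502 it was 1181 in YAP5SA (6.80) and 42.1 in TAZ4SA (4.34). The first of these was the strongest cluster site outside those held by 6 or 7 lists.

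The second stretch was the first 100 kb of the 11q window, on the side of the centromere. It held 9 sites, within chr11:55001186-55026500. TAZ4SA had a peak in 8 of them, EV in 7, YAP5SA in 3, YAP-TFE3 in 2, CAMTA1 and TAZ-CAMTA1 in 1 each and TFE3 in 0. EV and TAZ4SA were together in 6. The strongest peak was of TAZ4SA, with a summit of 8.84, in a site of 6 lists at chr11:55015076-55015338. Without this stretch the 11q window kept 8 EV peaks of 15, 9 TAZ4SA peaks of 17 and 14 YAP5SA peaks of 17. The median density ratio of the clusters was then 0.285.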

How the data were processed

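Chromatin of 20 SW872 libraries was profiled by ATAC-seq, and 7 peak lists, 1 per vector, were analysed. According to the study's methods, reads were trimmed with NGmerge, aligned to hg19 with BWA-MEM and passed to the peak caller Genrich, in its ATAC mode, which dropped PCR duplicates and blacklisted regions and multi-mapping reads accounted for. The labels name Bowtie 0.12.2 and a mouse build, which the human chromosome ends in the lists contradict. The authors deposited for each peak a signal, the area under the curve (at least 20.0), and the summit −log10 p (at least 3.05). The deposited score and −log10 q were not used.

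From these, peak numbers, widths, covered bases, sites (merged overlapping peaks) and overlaps of at least 1 bp were computed in Python 3.11.15 with pandas 2.3.3 and numpy 2.4.6. Chromosomes end at the last peak of any list (the rest of the genome is 3091 Mb, gaps included), and peaks on contigs were left out. Positions count from 1. Shares have Wilson and differences Newcombe 95% intervals, and those of density ratios come from the Wilson interval of the cluster share. No test across peaks was run, since each vector has 1 list. Overlap and interval code was tested on simulated data. Members, windows and alternatives were chosen with earlier results of these data known. Named sites were the 5 of all 7 lists with the largest smallest area, in the clusters and in the globin and TRIM window, and per list the strongest site held by it alone. Other sites were named after their values were seen.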

Additional observations from a re-analysis of the deposited data

How the results depend on the processing

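The density ratio stayed below 1 under every alternative run, for the median and for each list, in 126 of 126 values from 0.049 to 0.713. Some of these values could not move. No peak crossed a window edge, so placing peaks by their summit repeated the main ratios. Leaving out a list did not change the ratios of the other lists, and TAZ4SA, the shortest list, was kept whole at equal numbers. The summaries counted next include such a case. Of 68 recomputed summaries 45 stayed within the counting interval of the reported value, and 31 were lower than it. The median density ratio was 0.187 against the rest of chromosome 11, 0.168 by bases covered, 0.498 in the 11p15 windows only, 0.0985 in the 11q window only, 0.412 with the globin and TRIM window and 0.366 without the sites of all 7 lists. The median share of peaks with a summit of at least 5 was 22.7% without the sites of all 7 lists and 59.5% with equal numbers of peaks (152351 per list) by −log10 p or by area, which leave out the weakest peaks of the longer lists. Sites in 1 list made up 32.4% at a summit of at least 5, and 40.3% in lists cut to equal length by area. At a summit of at least 5, weaker peaks were first taken out of every list. A site of 1 list there still overlapped a weaker peak of another full list. Sites in all 7 lists were 21.6% at a summit of at least 5 and 3.45% in the 11q window only. The shares given so far were recomputed in the clusters only, as were the EV share and Jaccard index that follow. They cannot be set beside the values of the rest of the genome given above. The median share without an EV peak was 70.7% when an overlap of 50% of both peaks was asked. The median Jaccard index was 0.433 at a summit of at least 4, 0.488 at 5, 0.447 with lists of equal length by −log10 p, 0.444 by area, 0.455 in the 11p15 windows, 0.320 in the 11q window, 0.474 with the globin and TRIM window, 0.306 for peaks redrawn as 250 bp on either side of their summit and 0.430 without the first 100 kb of the 11q window. That last alternative was chosen after seeing the data, as was weighting the rest of the genome by each list's cluster peaks, under which the difference in the share with a counterpart under a summit of 4 was −7.48 points, with an interval that includes 0. The interval of the index counts every base as independent and is too narrow. No paired analysis was possible because single libraries are not separated in the lists. Leaving out each replicate was not run for the same reason.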
